A study of Mus musculus with 30 samples.

Results

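The mouse genes described here carry names made from RIKEN complementary DNA clones, and they were chosen by name alone. A probe was included when its symbol in the study's probe lists ended in Rik and began with the digits of 1 of 4 clone series, those that open the names 1700027A23Rik, 4921511C04Rik, 4930504H06Rik and 4933434I06Rik. The symbols 1700011H14Rik, 4930583H14Rik, 1700009N14Rik and 1700034I23Rik were left out. This gave 1017 probes for 1016 symbols among the 25030 probes of the authors' value table, of which 5622 had a symbol in those lists. The lists were read in shortened form, so other probes of the table could fit the rule and the 1017 may be incomplete. The 1700 series gave 538 probes, and the series of 4930504H06Rik, 4933434I06Rik and 4921511C04Rik gave 334, 108 and 37. In the RefSeq reference 524 of the names were still current, 327 were older synonyms, and 166 were found under neither. The annotation called 417 of them protein-coding and 404 long noncoding RNA (lncRNA). Where a gene now has another name, that name is used below with the clone name in brackets.

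Adult male mice of the C57BL/6 strain, which the labels give as 28 weeks old, supplied 15 tissues, each hybridised to 2 arrays, 30 arrays in all. The tissues were bladder, bone, brain cortex, cerebellum, eyes, fat, heart, kidney, large intestine, liver, lung, muscle, skin, small intestine and stomach. Each 2-colour Agilent array carried tissue RNA in Cy3 and, in Cy5, a common reference, commercial universal mouse RNA pooled from cell lines to which RNA of MC1 embryonic stem cells was added. Replicates came from different animals, except that the series design names a single replication for bone and for fat, so for those tissues the spread between arrays may be technical. No testis sample was among them. Values below are log2(Cy3/Cy5), the level in the tissue relative to the reference, and a difference is the mean of a tissue minus the mean of the other 14, with its standard error (SE) from limma, 2 arrays against 28. A probe was called enriched in a tissue at an adjusted p under 0.05 with a difference of at least 2, which is 4-fold, and lower at -2 or less.

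RIKEN named its clones by the library they came from, and these 4 series were made from adult testis. A gene first found in testis need not be silent elsewhere. Sperm swim with a flagellum whose core, the axoneme, is built much like that of the motile cilia on airway epithelium, on the ependyma that lines the brain ventricles and in the oviduct. The same parts of the axoneme, its dynein arms, radial spokes and microtubule inner proteins, are therefore made in several organs. Other genes of spermatogenesis, for meiosis or the acrosome, have no known counterpart in a cilium.

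Most of the probes were dim outside the testis. Of the 1017 probes, 660 (64.9%) had at least 1 tissue in which the scanner software flagged Cy3 well above background on both arrays, against 84% of all probes of the table, and 141 passed on no array at all. Only 187 (18.4%) did so in all 15 tissues, against 47.2% of all probes. The median number of tissues was 2 for the RIKEN probes and 14 for the table, and their median Cy3 signal was 70.3 against 154 scanner units. A further 87 were above background in 1 tissue, 188 in 2 to 5 and 198 in 6 to 14. Protein-coding members passed more often, 330 of 417 (79.1%), than lncRNAs, 223 of 404 (55.2%). Of the 1700 series 61.2% passed that filter, and of the others 68.9% to 70.3%. In the reference channel 314 (30.9%) were well above background on all 30 arrays, against 59.1% of the table.

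Detection differed between tissues. In eyes 575 (56.5%, against 76.1% of all probes) were well above background on both arrays, in cerebellum 518 (50.9%, against 72.1%), in lung 428 (42.1%, against 68.1%) and in skin 414 (40.7%, against 67.7%). Heart and muscle gave 287 each (28.2%, against 58.8% in heart and 58.1% in muscle). Single arrays of a tissue could differ as much as tissues did: 660 members (64.9%, against 78.4% of all probes) passed on brain cortex replicate 1 and 376 (37%, against 64.3%) on replicate 2, and 610 (60%, against 71.7%) on fat replicate 1 and 332 (32.6%, against 62.1%) on replicate 2. With either array enough, brain cortex gave 664, eyes 638, fat 618 and cerebellum 616. Where detection meant a signal above the 99th percentile of the negative control spots on both arrays, eyes gave 591, lung 445, skin 428, brain cortex 413 and cerebellum 397. Eyes came first where both arrays had to pass and second where either was enough, and the places of cerebellum, lung, skin, brain cortex and fat depended on the rule or on single arrays. In bulk tissue, fewer cells that express a gene and less of its RNA per cell cannot be told apart.

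**Figure D1:**
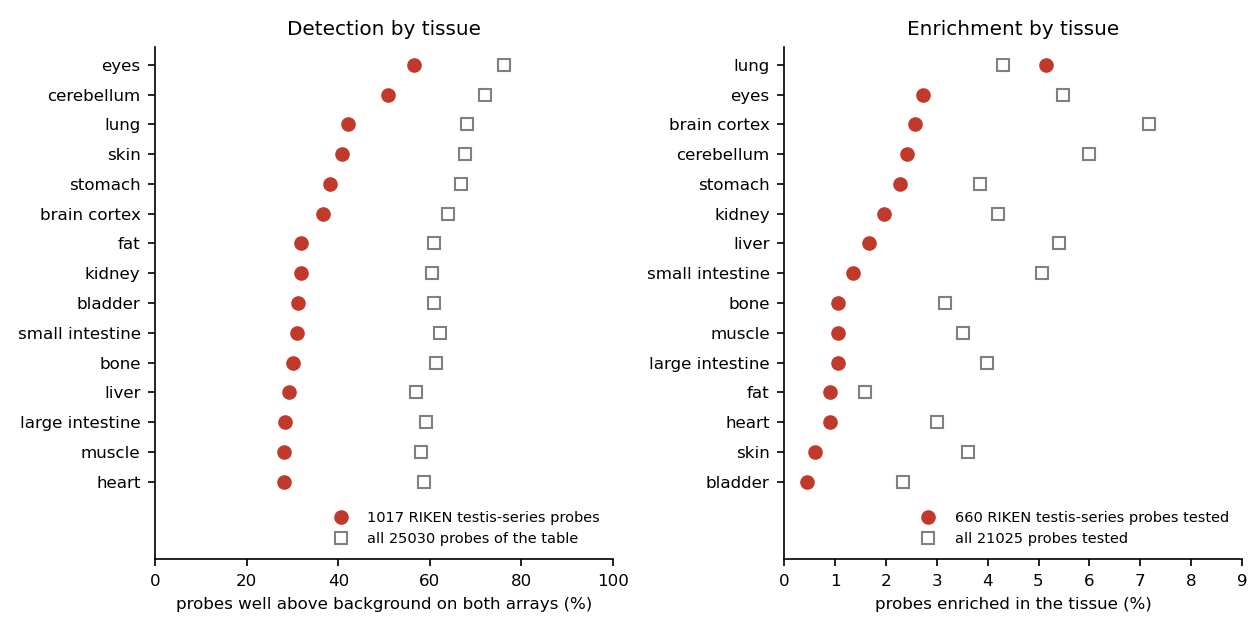
Share of probes well above background on both arrays of a tissue (left, %) and share enriched in it (right, % of probes tested), for the RIKEN testis-series probes (red circles) and all probes of the table (open squares). The RIKEN share lies below the share of all probes in every tissue on the left, and on the right in every tissue except lung, where it is 5.15% against 4.31%.

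The members that passed were also more even across tissues than the table. Limma's F-test over the 15 tissues called 497 of 660 (75.3%), against 90.7% of the 21025 probes tested. In at least 1 tissue 123 (18.6%) were enriched, against 34.1% of all probes, and 21 (3.18%) were lower, against 13.1%. With Agilent's processed signals and median centring, in place of the corrected spot signals and loess, these counts were 276 enriched (41.8%, against 48.2% of all probes) and 124 lower (18.8%, against 29.5%). Information, the number of bits by which the distribution of a gene over the 15 tissues falls short of an even one, had a median of 0.0535 for the members and 0.159 for all probes, out of a possible 3.91. On the processed signals the medians were 0.245 and 0.304, and 0.228 and 0.291 in the values the authors tabulated, so the members stayed below all probes by a smaller margin. In the main values a constant of 50 was added to both signals, which draws the log ratio of a dim probe towards 0. The RIKEN probes were dimmer than the table, and the part of this in their evenness was not tested. Of the members 30 (4.55%) reached 1 bit, against 10.3% of all probes. Protein-coding members were enriched in at least 1 tissue in 87 of 330 cases (26.4%), lncRNAs in 24 of 223 (10.8%). Of the enriched members 84 were so in 1 tissue, 29 in 2 and 10 in 3 or 4. These make 173 calls, and for 114 of them at least 1 of the other 14 tissues was not above background on either array, for 34 of them at least 8 tissues, so that the difference is there set in part against a floor.

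Lung had the most enriched members, 34 of the 660 tested (5.15%). Of all probes 4.31% were enriched in lung, so the share is near the background, and without the filter on dim probes it was 3.34% against 3.62%. What the 34 were is the main thing to describe. In the annotation 32 were protein-coding, the other 2 were not in the reference, and none was a lncRNA. Their differences ran from 2.03 to 5.03 with a median of 3.20, and for 28 (82.4%) both lung arrays lay above all 28 other arrays, against 47.9% of all probes enriched in lung.

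Genes of cilia and flagella were among the lung members. Pifo (1700027A23Rik), whose protein pitchfork acts at the base of primary cilia, read 4.27 and 5.12 in lung, while the other 28 arrays had a lowest value of -0.75, a median of -0.27 and a highest of 2.21, on fat replicate 1. Its difference was 4.46 ± 0.40 (SE), with an adjusted p of 6.39e-08 (limma). It was well above background on 13 of the other 28 arrays. The lung arrays exceeded the highest array of another tissue on their own slides by 3.14 and 3.30. The 60-base probes that read Pifo, the flagellar protein gene Cfap299 (1700007G11Rik) and Enkur (4933434I06Rik) are shown because the lung result rests on what they match.
Pifo: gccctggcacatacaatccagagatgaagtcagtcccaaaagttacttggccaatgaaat
Cfap299: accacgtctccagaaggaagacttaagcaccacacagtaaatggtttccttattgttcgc
Enkur: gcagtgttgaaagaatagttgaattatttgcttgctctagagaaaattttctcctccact
All 1017 probes had this length. The median GC content was 45.0% for the members and 43.3% for the table.

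Among the members, Spaca9 (1700026L06Rik), named for the sperm acrosome, had the largest lung difference. It read 2.62 and 3.62 in lung and from -2.71 to 1.77 on the other arrays, with a median of -2.22, a difference of 5.03 ± 0.41 (adjusted p = 1.75e-08, limma). Most tissues thus held less of it than the reference did, and lung held more. Cfap299 read 3.89 and 4.62, against -0.53 to 2.10 elsewhere with a median of -0.17, a difference of 4.04 ± 0.29 (adjusted p = 3.07e-09). Saxo2 (1700129I04Rik), a gene of an axonemal microtubule stabilizer, read 4.06 and 4.66, against -0.39 to 2.59 with a median of 0.17 elsewhere, a difference of 3.84 ± 0.22 (adjusted p = 2.01e-10). In these 3 genes both lung arrays were clear of every other array. Efcab10 (4930504H06Rik), which encodes an EF-hand protein, read 3.73 and 4.62 in lung, and the highest other array was brain cortex replicate 1 at 2.43, against a median of -0.94 elsewhere. Its lung difference was 4.60 ± 0.31 (adjusted p = 1.71e-09), and it was enriched in brain cortex too, by 2.73 ± 0.31 (adjusted p = 5.54e-07).

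Other genes at the head of the lung list still go by a clone name or a family name. Fam166c (1700001C02Rik) read 4.42 and 5.08 in lung, with 3.49 on fat replicate 1 as the highest other value and a median of 0.02 elsewhere, a difference of 4.33 ± 0.45 (adjusted p = 3.79e-07). 1700007K13Rik read 2.17 and 2.99 and stayed below the reference on every other array, from -3.35 to -0.69, a difference of 4.79 ± 0.29 (adjusted p = 4.38e-10). 1700021K14Rik read 5.04 and 5.63, against a highest other value of 3.41 on bone replicate 1, a difference of 4.61 ± 0.52 (adjusted p = 1.08e-06). 1700024G13Rik read 3.77 and 4.43 and at most 1.82 elsewhere, a difference of 4.39 ± 0.27 (adjusted p = 4.17e-10). Of a like size was 1700016K19Rik, at 4.13 and 4.94, but it was high in stomach as well, at 3.51 and 3.55, and was enriched in both tissues, by 4.11 ± 0.35 in lung (adjusted p = 3.17e-08) and 3.03 ± 0.35 in stomach (adjusted p = 1.87e-06).

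**Figure D2:**
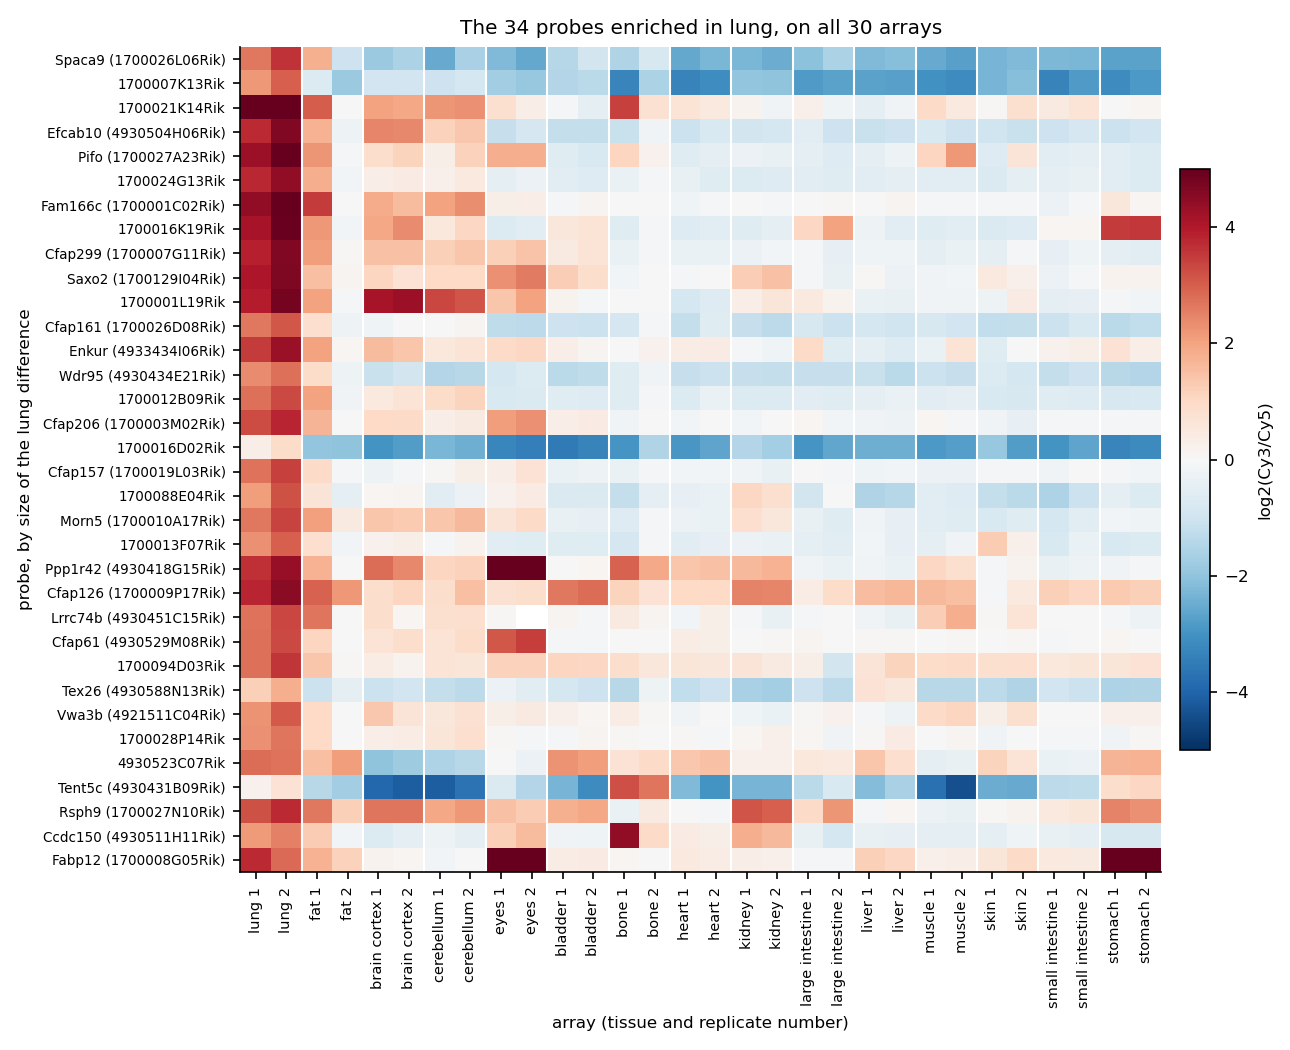
The 34 probes enriched in lung (rows, ordered by the lung difference) on all 30 arrays (columns, tissue and replicate number). Colour gives log2(Cy3/Cy5) from -5 to 5, values past either end have the end colour, and the blank cell is a missing value. Both lung columns lie above 0, the level of the reference, in every row, and fat replicate 1 is higher than fat replicate 2 in 32 of the 34 rows.

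The axoneme list held 20 members chosen by the start of their names, most of them names of cilia or flagella genes (Cfap, Saxo, Rsph, Enkur, Pifo and others). The leucine-rich repeat genes Lrrc63 and Lrrc69, named after their values were seen, were on it by their letters alone. Of the 20, 16 passed the filter, 15 of them differed among tissues (against 90.7% of all probes tested) and 11 (68.8%, against 34.1%) were enriched somewhere, 10 of them in lung (62.5%, against 4.31%). The median lung difference of the 16 was 2.70, against -0.09 over the members and -0.10 over all probes tested. Besides Pifo, Cfap299 and Saxo2, the radial spoke gene Rsph9 (1700027N10Rik) read 3.19 and 3.72 in lung and 3.13 at most elsewhere, on kidney replicate 1, a difference of 2.22 ± 0.28 (adjusted p = 3.11e-06), which was 1.96 without lung replicate 2, 1.32 with slide and 1.99 with scan day as a fixed block, and then no longer enriched. Enkur, a calmodulin-binding protein of the sperm tail, read 3.48 and 4.33, against at most 2.01, a difference of 3.55 ± 0.36 (adjusted p = 3.03e-07). Cfap161 (1700026D08Rik) read 2.62 and 3.10 against at most 0.83, Cfap157 (1700019L03Rik) 2.70 and 3.43 against at most 0.94, and Cfap206 (1700003M02Rik) 3.27 and 3.81 against at most 2.28 on an eye array. The difference was 3.64 ± 0.21 for Cfap161, 3.12 ± 0.18 for Cfap157 and 3.27 ± 0.24 for Cfap206, with adjusted p-values of 1.95e-10, 2.44e-10 and 4.82e-09 (limma).

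Cfap126 (1700009P17Rik) was above background in every tissue and highest in lung, at 3.79 and 4.50, with a median of 1.15 elsewhere, a difference of 2.79 ± 0.20 (adjusted p = 4.57e-09). Cfap61 (4930529M08Rik), whose product belongs to the radial spokes, was shared by eyes, at 3.12 and 3.47, and lung, at 2.74 and 3.30, and was enriched in both, with a median of 0.05 on the other arrays as seen from lung. A second Cfap61 probe outside the authors' table, well above background on 2 arrays, differed by 0.14 in eyes. Pacrgl (4933428G09Rik), Cfap97 (4933411K20Rik) and Ift43 (1700019E19Rik), a subunit of the intraflagellar transport machinery that every cilium needs, all named after their values were seen, were above background in all 15 tissues and were enriched in none. Cfap20dc (4930452B06Rik) had another pattern, with enrichment in bladder at 2.23 and 2.17, stomach at 1.90 and 2.10 and brain cortex at 1.31 and 1.53, and was not well above background on the arrays of muscle, skin and small intestine. A second Cfap20dc probe outside the authors' table differed by 0.22 in bladder and was highest in brain cortex.

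The sperm list held 37 members, again by the start of their names, most of them names of testis, acrosome or sperm genes (Tex, Spata, Spaca, Izumo and others), with the actin-like Actl genes and Adam6b besides. Of these 28 passed the filter, 18 differed among tissues (against 90.7% of all probes tested) and 3 (10.7%, against 34.1%) were enriched, 2 of them in lung (7.14%, against 4.31%). Their median information was 0.0349. Besides Spaca9 these were Tex26 (4930588N13Rik), at 1.19 and 1.82 in lung and at most 0.71 elsewhere, a difference of 2.50 ± 0.20 (adjusted p = 1.29e-08), and Catsperz (1700019N12Rik), described with the brain below. A list of 15 members with coiled-coil names had 13 past the filter and 3 (23.1%) enriched. In this list Ccdc171 (4930473A06Rik) was enriched in liver, at 2.26 and 2.39 with 0.80 as the highest other value, a difference of 2.37 ± 0.12 (adjusted p = 1.28e-11), which was 1.63 with median centring and then not enriched, and its second probe outside the authors' table differed by 0.01. Ccdc175 (4930403N07Rik) was enriched in large intestine at 1.84 and 3.27, a difference of 2.14 ± 0.22 (adjusted p = 3.82e-07), which was 1.42 without large intestine replicate 2, 1.51 with median centring, 1.78 with slide and 1.74 with scan day as a fixed block, and then not enriched. Ccdc150 (4930511H11Rik), named here after its values were seen, was called in bone and lung, but its bone arrays read 4.42 and 0.97. The 3 lists were drawn up from gene names with earlier results of these data known.

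The lung members were also detected elsewhere. On both arrays of cerebellum 33 of the 34 were well above background (against 72.1% of all probes), in brain cortex 31 (against 64%), in eyes 30 (against 76.1%), in skin 23 (against 67.7%) and in liver, with the fewest, 10 (against 57%). All 34 had passed the filter, whereas the shares in brackets are over all probes of the table, of which 84% passed it. The counts and the shares are thus not on a like base. Their median log2(Cy3/Cy5) was 3.09 in lung, 0.83 in fat, 0.66 in cerebellum, 0.53 in brain cortex and 0.34 in eyes, and between -0.32 and -0.03 in the other 10 tissues. Lung replicate 2 was higher than replicate 1 for 32 of the 34, with a median gap of 0.66 against 0.02 over all members past the filter. That array shared its slide with the 2 eye arrays and lung replicate 1 shared its slide with brain cortex replicate 2. Both lung arrays exceeded every array of another tissue on the same slide for 30 of the 34. With slide as a fixed block, within the tissues its shared slides link to lung, 32 members were enriched. With scan day as such a block the count was 34, without Rsph9.

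Of 39 markers of motile cilia only 6 had a probe with that symbol, and 5 of these were enriched in lung, but 4 of the 6 are themselves members. The others were Fam183b, at 4.0 and 4.89 in lung with a difference of 5.34, and Spag16, a central pair gene, at 1.11 and 1.53 with a difference of 1.16, under the threshold. The part of the number of ciliated cells in the lung result was not tested.

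Fat stood apart within these genes, since its arrays disagreed. They were on different slides and scanned on different days, so slide, day and sample cannot be told apart here. All 34 lung-enriched members were well above background on fat replicate 1 (against 71.7% of all probes) and 15 on fat replicate 2 (against 62.1%). As before, these shares are over all probes of the table, whether or not they passed the filter. On replicate 1 the value was higher for 32 of them and by at least 1 for 26. The median gap, replicate 1 minus replicate 2, was 1.37 for the 34, 0.14 for all members past the filter and -0.02 for all probes tested. For 16 of the 34, fat replicate 1 was the highest array outside lung. Fam166c read 3.49 and -0.02 on the fat arrays, Pifo 2.21 and -0.08, and Spaca9 1.77 and -1.02.

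Over the members past the filter, 42 (6.38%) were at least 2 log2 units higher on fat replicate 1 than on replicate 2, against 5.2% of all probes tested, and 1 was as much higher on replicate 2. In large intestine 10 members were at least 2 apart in either direction, in bone 4, in bladder, skin and small intestine 1 each, and in the other 9 tissues none. Fat therefore had 6 enriched members (0.909%, against 1.59% of all probes), but 33 without fat replicate 2 and 3 without fat replicate 1. Among the members that parted the fat arrays were genes that were low in lung as well. Fam24b (1700007K09Rik) read 3.27 and -0.11 in fat and at most 0.35 on the other 28 arrays, 1700009J07Rik read 3.23 and -0.06 with at most 0.32 elsewhere, and the testis-named Tex48 (1700018C11Rik) 2.35 and 0.02 with at most 0.52 elsewhere. These 3 were chosen after their values were seen. Of 20 male germ cell markers 1 had a probe with that symbol, Tnp1, which encodes a nuclear transition protein of spermatids. It read 3.90 on fat replicate 1, 0.02 on fat replicate 2, and 0.11 and 0.01 in lung. Markers of other organs parted the fat arrays too, Plet1 of large intestine at 3.94 and -0.66 and Lct of small intestine at 2.11 and -0.03. The cilia markers Fam183b and Spag16 read 1.84 and -1.26, and 1.18 and 0. By contrast Pdc, Serpinc1, Apoa2, Actn3, Krt10 and Mptx1 read at most 0.20 on either fat array. The part of other tissue on the first fat array in these values was not tested.

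**Figure D3:**
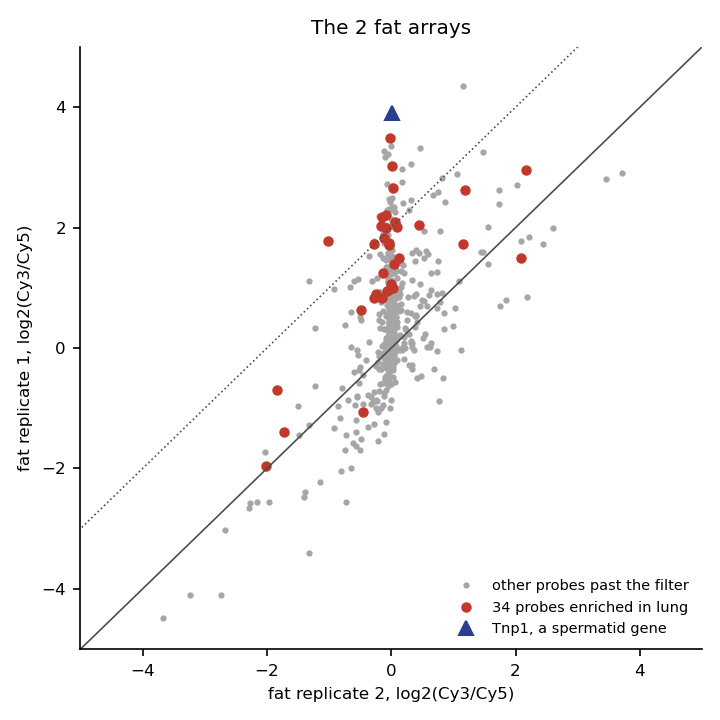
log2(Cy3/Cy5) on fat replicate 1 (vertical) against fat replicate 2 (horizontal), 1 point per RIKEN testis-series probe past the filter. Grey points are other probes, red points the 34 enriched in lung, and the blue triangle Tnp1, which is not a RIKEN probe. The solid line marks equal values and the dotted line a gap of 2. Of the red points 32 lie above the solid line, with a median gap of 1.37.

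Some enriched fat members were high on both fat arrays. Lrmda (1700112E06Rik) read 2.80 and 3.46 in fat and at most 2.41 elsewhere, on bladder replicate 2, a difference of 2.17 ± 0.14 (adjusted p = 4.21e-09). Akr1cl (4921521F21Rik), of the aldo-keto reductase family, read 3.26 and 1.48 in fat, far apart but both above the other arrays, whose highest was 0.73, a difference of 2.30 ± 0.24 (adjusted p = 9.39e-07). Proca1 (4933404M19Rik), named after its values were seen, read 2.90 and 3.71 in fat and 3.22 and 3.60 in liver and was enriched in both. With median centring in place of loess no member was enriched in fat, with 1.93 for Lrmda and 1.62 for Akr1cl. Lrmda was at 1.84 without fat replicate 2 and Akr1cl at 1.42 without fat replicate 1 and 1.53 with slide as a fixed block, all under the threshold of 2.

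The promoters of the lung members were compared by the letters of the X-box, the site that RFX transcription factors bind at many genes of cilia. RefSeq promoter sequences of GRCm38.p6, from 250 bases before to 50 after the start, were at hand for 27025 genes, for 678 members and for 23 of the 34. Either strand was searched for GTTGCC and GTTGCTA, spellings of an arm of the site, and for the palindrome GTNNCCNNGGNNAC, which can contain the first. At least 1 of these 3 was found in 20 of the 23 lung members (87.0%), in 31.3% of all members, in 18.4% of all genes and in 32.6% of the 242 protein-coding members past the filter that were not enriched in lung. GTTGCC was in 43.5% of the lung members and 14.1% of all genes, GTTGCTA in 39.1% and 4.28%, and the palindrome in 21.7% and 2.16%. Among the 64 members enriched only in another tissue, 21.9% held any of the 3 and none held GTTGCTA. The spellings were settled with such counts already seen, 8 motifs were counted in all, and no test was made. Of the other 5, the CCAAT box was in 39.1% of the lung members and 41.1% of all genes, TATAAA in 4.35% and 15.7%, the ETS site CCGGAAG in 8.70% and 9.93%, the forkhead site TGTTTAC in 8.70% and 4.05%, and the cyclic AMP response element TGACGTCA in none and 2.03%.

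The 100 bases before the start of 4 lung members show these letters, in capitals, on the strand of the gene. GGCAAC is GTTGCC and TAGCAAC is GTTGCTA read on the other strand. The windows are Fam166c, chr5:30465977-30466076, plus strand, then Cfap161, chr7:83794840-83794939, Enkur, chr2:21205366-21205465, and Cfap206, chr4:34730207-34730306, all on the minus strand.
Fam166c: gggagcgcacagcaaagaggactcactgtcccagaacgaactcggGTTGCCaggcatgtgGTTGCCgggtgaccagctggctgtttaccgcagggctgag
Cfap161: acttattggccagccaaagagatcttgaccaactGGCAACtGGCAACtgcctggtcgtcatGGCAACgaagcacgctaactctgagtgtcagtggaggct
Enkur: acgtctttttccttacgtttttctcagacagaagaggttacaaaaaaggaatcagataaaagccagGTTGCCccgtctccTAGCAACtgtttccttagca
Cfap206: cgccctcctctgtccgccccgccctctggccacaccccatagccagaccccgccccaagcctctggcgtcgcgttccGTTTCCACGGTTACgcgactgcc
Fam166c holds GTTGCC in 2 places and Cfap161 in 3, Enkur has both spellings, and Cfap206 has the palindrome. A match is a description of the letters and not evidence of binding in lung.

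Eyes had 18 enriched members (2.73%, against 5.49% of all probes). Fabp12 (1700008G05Rik), of the fatty acid-binding protein family, had the highest information of all members, 1.96 bits. Its eye arrays read 6.35 and 6.49, against -0.13 to 5.87 with a median of 0.39 elsewhere, a difference of 5.39 ± 0.16 (adjusted p = 2.12e-15). The other arrays near the top were the stomach ones at 5.81 and 5.87, and it was enriched there too, by 4.77 ± 0.16, and in lung, at 3.74 and 2.84. Its probe is shown because that reading spans 3 organs.
Fabp12: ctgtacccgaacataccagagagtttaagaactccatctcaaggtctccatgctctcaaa
Ppp1r42 (4930418G15Rik), a regulatory subunit of protein phosphatase 1, read 6.21 and 6.53 in eyes and next 3.64 and 4.35 in lung, with differences of 5.36 ± 0.29 (adjusted p = 2.08e-11) and 2.82 ± 0.29 (adjusted p = 2.86e-07). Both tissues stood clear of the median of 0.92.

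Known eye genes were among the rest. Prss56 (1700027L20Rik), a serine protease that is needed for normal growth of the eye, read 3.71 and 3.87 and at most 1.56 elsewhere, with a median of -0.94, a difference of 4.55 ± 0.28 (adjusted p = 1.44e-10). It was well above background on 5 of the 28 other arrays, and 11 of the 14 other tissues had neither, so that the size rests mostly on a floor. Fam161a (4930430E16Rik), a protein of the photoreceptor cilium, read 3.8 and 4.06 and at most 2.53 elsewhere, with a median of 0.89, a difference of 2.90 ± 0.18 (adjusted p = 1.86e-10). The lncRNA 1700119H24Rik read 4.37 and 4.68 in eyes and 2.83 on each kidney array, and differed by 3.94 ± 0.17 in eyes (adjusted p = 9.25e-13) and 2.13 ± 0.17 in kidney (adjusted p = 1.04e-08). For 13 of the 18 (72.2%) both eye arrays lay above all others, against 36.4% of all probes enriched in eyes.

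Brain cortex had 17 enriched members (2.58%, against 7.17%) and cerebellum 16 (2.42%, against 5.99%). Both cerebellum arrays shared a slide with brain cortex replicate 1. With slide as a fixed block, which compares each of these tissues with only 3 others, the other brain region, eyes and lung, 5 members were enriched in cortex and 1 in cerebellum. Fam135b (1700010C24Rik), named here after its values were seen, read 5.35 and 5.04 in brain cortex, 5.28 and 5.14 in cerebellum and 4.51 and 4.88 in eyes, and was enriched in all of these, by 4.55 ± 0.14, 4.57 ± 0.14 and 4.02 ± 0.14. The values of the brain regions overlap, and the difference between them was not tested. Golga7b (4933417O08Rik), of the golgin A7 family, read 4.84 and 4.65 in brain cortex and 4.46 and 4.52 in cerebellum, a cortex difference of 3.69 ± 0.24 (adjusted p = 3.02e-10). Pnmal1 (4930488B01Rik), a paraneoplastic antigen relative, read 4.33 and 4.19 in cortex, 3.82 and 3.89 in cerebellum and 3.10 and 3.41 in eyes, with a cortex difference of 3.5 ± 0.11 (adjusted p = 6.60e-15). Within the linked tissues the difference of Pnmal1 was 1.88, under the threshold.

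Ccsap (1700054N08Rik), which encodes a protein of centrioles, cilia and spindles, was higher in cortex, at 2.41 and 2.19, than in cerebellum, at 0.99 on both arrays, and elsewhere had a median of -1.53. Its cortex difference was 3.61 ± 0.19 (adjusted p = 1.10e-11). Catsperz, for an auxiliary subunit of the sperm calcium channel, read 3.12 and 3.05 in brain cortex and at most 1.76 elsewhere, on bladder replicate 1, with a median of -0.38, a difference of 3.04 ± 0.28 (adjusted p = 3.54e-08). 1700016P03Rik read 3.73 and 4.25 in cortex and up to 3.44 in cerebellum, a difference of 3.60 ± 0.42 (adjusted p = 6.59e-07), which was 1.65 and not called within the linked tissues.

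Of the 16 members enriched in cerebellum 6 were lncRNAs, and 9 were protein-coding. The lncRNA 1700057H15Rik read 4.56 and 4.75 in cerebellum and 4.50 and 4.01 in brain cortex, against a median of 0.20 elsewhere, with differences of 4.15 ± 0.13 (adjusted p = 8.06e-15) and 3.72 ± 0.13 (adjusted p = 2.73e-14). The lncRNA 4930594M22Rik read 5.04 and 4.49 in cerebellum and 4.01 and 2.58 in eyes, a cerebellar difference of 3.97 ± 0.29 (adjusted p = 1.39e-09). Brain cortex was also high for 1700047M11Rik, at 4.18 and 4.07 in cerebellum and 3.94 and 3.66 in cortex, and for 4933407L21Rik, at 3.40 and 3.52 and at 3.35 and 2.70. Ms4a19 (1700025F22Rik), of a membrane protein family with close copies that its probe may also read, had 2.88 and 2.74 in cerebellum and at most 2.25 elsewhere, a difference of 2.60 ± 0.17 (adjusted p = 3.38e-10). Within the linked tissues, brain cortex among them, the cerebellar differences were 1.95 for 4930594M22Rik, 1.91 for Ms4a19, 1.82 for 1700047M11Rik and 1.6 for 4933407L21Rik, and of the 5 cerebellar calls named 1 was kept.

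Liver had 11 enriched members (1.67%, against 5.4%). Pdilt (1700007B13Rik) encodes a disulfide isomerase-like chaperone known from spermatids. It read 5.44 and 5.48 in liver and 3.95 and 3.84 in kidney, with a median of 0.14 over the 28 arrays outside liver. The differences were 4.95 ± 0.17 in liver (adjusted p = 1.39e-14) and 3.27 ± 0.17 in kidney (adjusted p = 1.64e-11), and outside liver it was well above background on 9 arrays. The probe that gave these values is shown because the gene is known for the testis.
Pdilt: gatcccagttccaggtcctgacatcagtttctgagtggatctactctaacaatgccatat
1700001C19Rik read 4.45 and 4.73 in liver and at most 1.47 elsewhere, a difference of 4.71 ± 0.11 (adjusted p = 3.66e-16). Meiob (4930528F23Rik), which binds single-stranded DNA in meiotic recombination, read 2.44 and 2.45 in liver and was below the reference on every other array, from -2.44 to -0.18, a difference of 3.78 ± 0.15 (adjusted p = 1.37e-13). The lncRNA 4933438K21Rik followed Pdilt in its order of tissues, with 3.56 and 3.97 in liver and 2.36 and 2.28 in kidney. Tmem243 (4930420K17Rik), a membrane protein gene, read 3.32 and 3.12 in liver and at most 2.46 elsewhere, a difference of 2.70 ± 0.27 (adjusted p = 1.38e-07).

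Kidney had 13 enriched members (1.97%, against 4.21%). 1700016C15Rik, with 1.94 bits, read 5.22 and 4.87 in kidney and 3.69 and 3.67 in small intestine, and had a median of -0.62 outside kidney. It was enriched in both, by 5.35 ± 0.30 (adjusted p = 6.76e-11) and 3.89 ± 0.30 (adjusted p = 6.87e-09). Ct55 (4930502E18Rik), named as a cancer and testis antigen, was confined to kidney among the enriched calls, at 3.48 and 4.13 with 0.56 as the highest other value, a difference of 3.99 ± 0.13 (adjusted p = 2.65e-14). The lncRNA 1700028J19Rik read 3.26 and 3.14 in kidney and at most 1.31 elsewhere, a difference of 3.05 ± 0.22 (adjusted p = 3.19e-09). 1700067K01Rik read 2.18 and 2.21 with at most 1.12 elsewhere. 4930503E14Rik, by contrast, was below the reference even in kidney, at -0.69 and -0.88, and further below it in the other tissues, down to -4.44.

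Fam83e and Bnip5 were high in more than 1 part of the gut. Fam83e (4930403C10Rik) read 6.55 and 6.79 in large intestine, 5.67 and 6.04 in small intestine and 5.98 and 5.80 in stomach, and had a median of -0.07 over the 28 arrays outside large intestine. It was enriched in each, by 5.43 ± 0.29 (adjusted p = 5.71e-11), 4.56 ± 0.29 (adjusted p = 4.48e-10) and 4.60 ± 0.29 (adjusted p = 4.81e-10). Bnip5 (4930539E08Rik), with 1.91 bits, read 4.74 and 4.84 in large and 4.81 and 4.66 in small intestine, 2.59 and 2.03 in stomach and 1.5 and 1.87 in brain cortex. It was enriched in all 4 of these tissues, in brain cortex by 2.06. The intestines overlapped in Bnip5 and did not in Fam83e, and neither difference was tested.

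Small intestine had 9 enriched members (1.36%, against 5.06%), large intestine 7 (1.06%, against 3.99%) and stomach 15 (2.27%, against 3.85%). Without large intestine replicate 1 the count for large intestine was 16. Syce3 (1700007E06Rik), a part of the synaptonemal complex that pairs chromosomes in meiosis, read 1.69 and 1.93 in small intestine and at most 0.00 elsewhere, with a median of -2.20, a difference of 3.81 ± 0.22 (adjusted p = 9.83e-11). 4930515G13Rik read 4.57 and 4.63 in small intestine and 2.58 and 2.88 in liver, and 1700066B19Rik read 2.94 and 3.93 in large and 2.31 and 1.23 in small intestine. Nat8f4 (1700019G17Rik), of an N-acetyltransferase family with close copies that the probe may also read, had 2.66 and 2.64 in small intestine and at most 0.70 elsewhere, a difference of 2.57 ± 0.11 (adjusted p = 8.78e-13), which was 1.58 with median centring in place of loess and then not enriched. It was likewise above background on 5 of the 28 other arrays, with 11 of the 14 other tissues at the floor. The lncRNA 4933404O12Rik read 0.48 and 0.65 there, against a median of -1.86 elsewhere. In stomach Galntl6 (1700021K10Rik), of the glycosyltransferases that start mucin-type O-glycans, read 3.03 and 3.05 and at most 2.04 elsewhere, on a brain cortex array, a difference of 2.67 ± 0.12 (adjusted p = 2.78e-12). The lncRNAs 4930509E16Rik, 1700064F23Rik and 1700110K17Rik read between 1.92 and 2.60 in stomach, above every other array. The stomach difference of 4930509E16Rik was 1.69 with slide as a fixed block, and that of 1700110K17Rik 1.77 with scan day as one and 1.41 with median centring, all under the threshold.

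**Figure D4:**
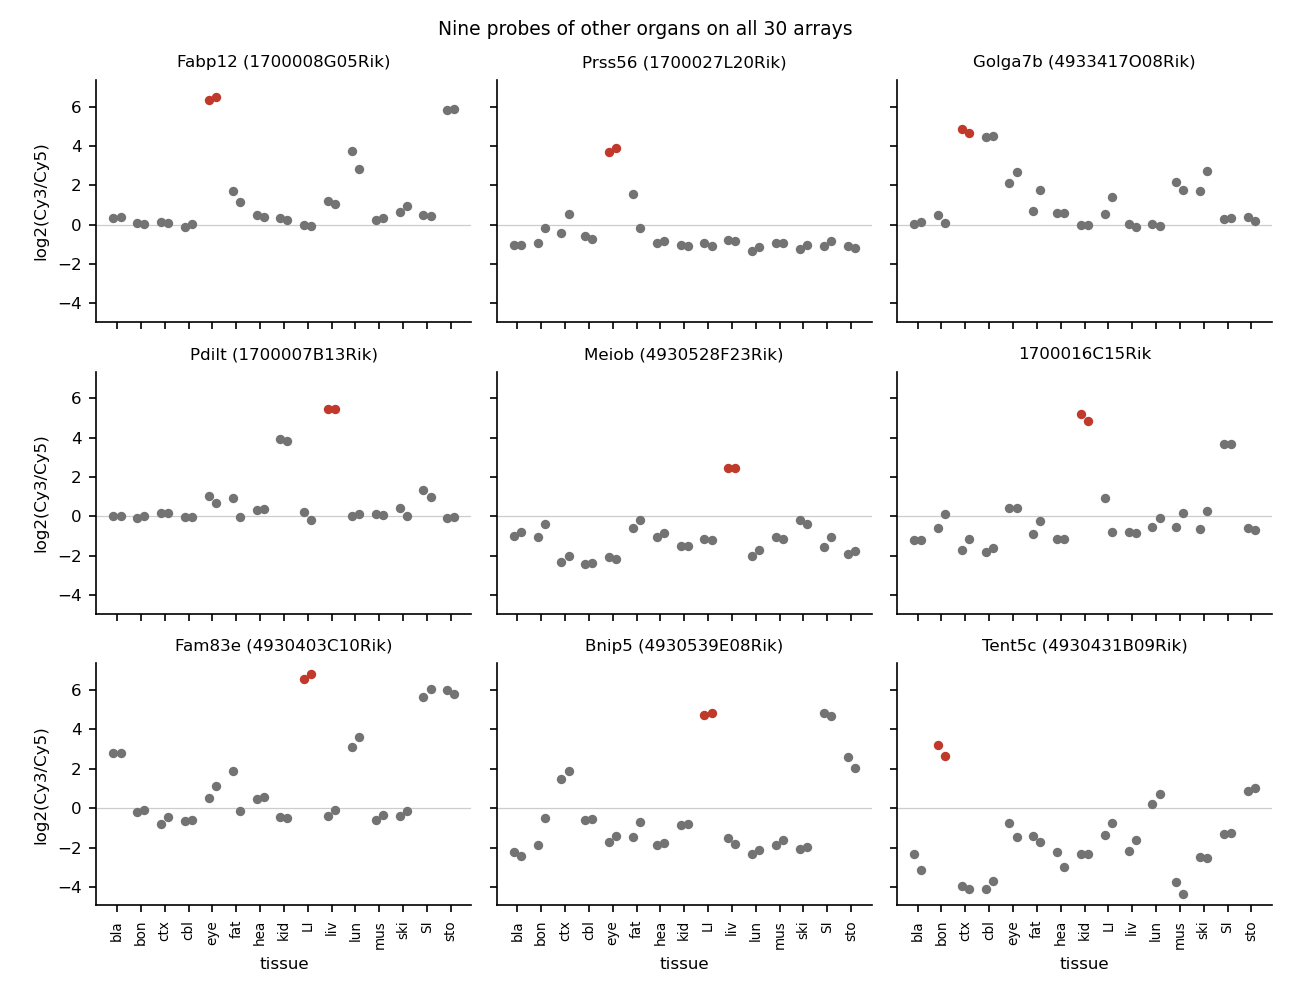
log2(Cy3/Cy5) of 9 members on every array, by tissue, with 1 point per array, the tissue of the largest difference in red and a line at 0, the level of the reference. Tissue names are cut to their first letters, with ctx for brain cortex, cbl for cerebellum, and LI and SI for large and small intestine. Each has a few high tissues over a low background, for example Pdilt with 5.44 and 5.48 in liver and 3.95 and 3.84 in kidney.

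Muscle and heart shared members, and each also had its own. Muscle had 7 enriched members (1.06%, against 3.52%) and heart 6 (0.909%, against 3.01%). The lncRNA 1700123M08Rik read 3.53 and 3.64 in muscle and 2.47 and 2.42 in heart, and was enriched in both, by 3.5 ± 0.15 (adjusted p = 8.34e-12) and 2.28 ± 0.15 (adjusted p = 1.18e-09). Ptges3l (1700113I22Rik) read 3.29 and 3.37 in muscle, 3.0 and 2.96 in heart and 2.69 and 2.71 in bone, and was enriched in all 3. Tmem225 (1700030E15Rik), which encodes a membrane protein, read 4.22 and 3.03 in muscle and at most 2.01 elsewhere, on bone replicate 1, a difference of 3.35 ± 0.25 (adjusted p = 3.35e-09). The muscle marker Actn3, a fast-fibre actinin, read 4.87 and 4.92 in muscle and up to 5.52 on an array outside muscle, and the part of muscle fibres in values outside muscle was not tested.

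In muscle 1700001O22Rik, at 3.28 and 3.20 against at most 1.45, and 1700113H08Rik, at 2.84 and 3.29 against at most 1.65, also led the calls. A second probe of 1700001O22Rik outside the authors' table differed by 0.04 in muscle. In heart the lncRNA 1700001J04Rik read 3.75 and 3.72, against at most 2.23, a difference of 2.83 ± 0.14 (adjusted p = 4.08e-11). Cabcoco1 (1700040L02Rik), for a calcium-binding coiled-coil protein of cilia, read 4.03 and 3.85 in heart, 3.5 and 3.58 in kidney and 2.46 and 2.94 in lung. Mtfp1 (1700020C11Rik), which acts in mitochondrial fission, read 3.54 and 3.58 in heart and at most 2.96 elsewhere, on muscle replicate 2, a difference of 2.36 ± 0.24 (adjusted p = 3.28e-07). Cep128 (4930534B04Rik), a centriole gene, read 1.1 and 0.95 in heart and at most 0.11 elsewhere, a difference of 2.34 ± 0.16 (adjusted p = 1.60e-09). With median centring in place of loess, Mtfp1 at 1.94, Cabcoco1 at 1.98 and Cep128 at 1.99 in heart and 1700113H08Rik at 1.99 in muscle were just under the threshold. With slide as a fixed block, which sets heart against liver alone, 1700001J04Rik was at 1.66 and Mtfp1 at 1.8.

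The remaining organs had few. Bone had 7 enriched members (1.06%, against 3.16%). Tent5c (4930431B09Rik), a poly(A) polymerase known from antibody-secreting plasma cells, read 3.22 and 2.67 in bone, against -4.38 to 1.02 with a median of -2.19 elsewhere, a difference of 4.92 ± 0.24 (adjusted p = 6.89e-11). The highest array outside bone was stomach replicate 2. Tent5c was also among the 34 members enriched in lung, at 0.20 and 0.74. 1700020L24Rik read 3.94 and 3.21 in bone and at most 2.21 elsewhere, and the serine protease gene Prss52 (1700049K14Rik) -0.41 and -0.74 in bone and from -3.93 to -1.94 elsewhere, so Prss52 was below the reference throughout. Its bone difference of 2.49 was 1.54 with slide and 1.78 with scan day as a fixed block, under the threshold. Skin had 4 (0.606%, against 3.61%), among them Sh3d21 (1700029G01Rik), at 5.36 and 4.62 in skin and 3.63 and 4.52 in large intestine, and 4930438A08Rik, at 3.66 and 4.25 in skin, 3.04 and 2.52 in stomach and 3.14 and 1.84 in bone and enriched in all 3. A second probe of Sh3d21 outside the authors' table was also highest in skin but differed by 1.49, under the threshold. Bladder had 3 (0.455%, against 2.34%). These were 1700038P13Rik, at 3.38 and 3.60 with 0.66 as the highest other value, a difference of 3.57 ± 0.14 (adjusted p = 2.30e-12), Fbxw27 (1700124P09Rik), an F-box gene with close copies, at 2.48 and 2.84, and Cfap20dc. With slide as a fixed block, which sets bladder against kidney alone, Fbxw27 was at 0.75 and Cfap20dc at 1.97, and neither was enriched.

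Few members were low in a single tissue. Muscle had the most, 9 (1.36%, against 4% of all probes). Shtn1 (4930506M07Rik), for shootin, a protein of growing axons, read -2.48 and -2.69 in muscle, against -0.98 to 2.27 with a median of 1.28 elsewhere, a difference of -3.57 ± 0.25 (adjusted p = 1.52e-09). Both muscle arrays lay below all others. Tent5c differed by -2.59 ± 0.24 in muscle and 4930402H24Rik by -2.36 ± 0.22, with adjusted p-values of 7.74e-08 and 5.64e-08 (limma). The muscle arrays of 4930402H24Rik, at -1.17 and -1.28, were below all others, whereas those of Tent5c overlapped with other tissues. Cfap20dc and Fam83e were also called, but neither was well above background on a muscle array, so their muscle values are bounds and no size is given.

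At the other end were members seen on all 30 arrays with hardly any pattern. Among the members seen on all 30 arrays the lowest information was that of the lncRNA 4930519D14Rik, 0.0104 bits, whose highest tissue was muscle at 0.25 and 0.22, within the range of the other arrays from -0.42 to 0.31. The lncRNA 4933429K18Rik, at 0.0112 bits, read 0.45 and 0.43 in muscle and from -0.18 to 0.49 elsewhere. 1700020N15Rik, 4921536K21Rik and Spata31 (4930458L03Rik), of a spermatogenesis gene family with close copies, had 0.0123, 0.0139 and 0.0142 bits. Their Cy3 signals in the highest tissue, between 100 and 169 scanner units, compare with medians of 70.3 over the RIKEN probes and 154 over the table. The part of low signal in their evenness was not tested. 4921536K21Rik read 1.14 and 0.04 in bone, and its difference of 0.42 ± 0.17 there did not pass the test (adjusted p = 0.0604, limma).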

How the data were processed

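RNA of 15 tissues, 2 arrays each, was compared with a common reference on 2-colour Agilent arrays. Spots were read by the authors in Agilent Feature Extraction 9.5.1.1. In the deposited files each spot has a signal and a local background as intensity, and flags, another kind of value, for spots well above background. The authors' value table of 25030 probes is on a log10 scale. Regressed on the processed spot signals, its slope was 0.998 for log10 Cy3 and -0.996 for each array's log10 Cy5 deviation, so it is a Cy3 level adjusted for the reference. Its column medians ran from 2.5 to 2.65, and the centring of the reference term stays as found from the values.

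Signals were corrected with normexp (offset 50), normalised by loess within arrays, turned to log2(Cy3/Cy5) and averaged per probe (limma 3.58.1, R 4.3.3). Probes flagged well above background in Cy3 on both arrays of at least 1 tissue were tested, 21025 in all, of which 660 are members. One coefficient per tissue was fitted to the 30 arrays, with an F-test and 15 two-sided contrasts, Benjamini-Hochberg adjusted over all probes. The members, the axoneme, coiled-coil, sperm and marker lists and the tests were chosen with earlier results of these data known. Of the markers of 6 tissues, 8 had a probe, and each was enriched in its tissue. Apoa2 of liver, Actn3 of muscle and Plet1 of large intestine nonetheless read higher on an array of another tissue, at 4.37, 5.52 and 6.73. No marker of lung, brain, heart, kidney, bladder, stomach, fat, bone or epididymis had a probe symbol.

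Genes were named by rule. Up to 5 per tissue, 10 in lung, with the largest difference and no overlap with other arrays, the 5 with the highest information, the 5 with the lowest among those well above background on all 30 arrays, enriched members of the lists, and the 5 lowest in muscle were eligible. Other names, such as list members that were not enriched and genes with a second probe, were chosen after their values were seen. Alternatives were other signals, scalings and filters, slide, scan day and replicate number as blocks, and each array left out. The slides were 11 and the scan days 5. The tests were checked on simulated data.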

Additional observations from a re-analysis of the deposited data

How the results depend on the processing

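In the main setting 497 members differed among tissues, 123 were enriched and 21 lower, and the count of the F-test kept within 1.5 times of this under every alternative run. With Agilent's processed signals, median-centred, 276 members were enriched in any tissue, 124 were lower in any and the median information was 0.245, and the enriched counts were 16 in bladder, 21 in bone, 55 in brain cortex, 51 in cerebellum, 55 in eyes, 20 in fat, 20 in heart, 31 in kidney, 21 in large intestine, 32 in liver, 61 in lung, 26 in muscle, 16 in skin, 19 in small intestine and 24 in stomach. On the authors' value table, 262 members were enriched in any tissue, 106 were lower in any and the median information was 0.228, and the enriched counts were 12 in bladder, 21 in bone, 53 in brain cortex, 43 in cerebellum, 44 in eyes, 21 in fat, 22 in heart, 29 in kidney, 20 in large intestine, 32 in liver, 56 in lung, 24 in muscle, 11 in skin and 19 in small intestine. With median centring in place of loess, the median information was 0.0385, and the enriched counts were 6 in bladder, 4 in bone, 0 in fat, 2 in heart, 8 in kidney, 6 in liver and 2 in skin. With a minimum difference of 1, 313 members were enriched in any tissue and 128 were lower in any, and the enriched counts were 21 in bladder, 26 in bone, 65 in brain cortex, 57 in cerebellum, 57 in eyes, 43 in fat, 28 in heart, 39 in kidney, 28 in large intestine, 38 in liver, 59 in lung, 36 in muscle, 22 in skin, 21 in small intestine and 25 in stomach. Where a tissue had to exceed each of the other 14 by 1, the enriched counts were 1 in bladder, 4 in bone, 3 in brain cortex, 1 in cerebellum, 3 in heart, 7 in kidney, 3 in large intestine, 4 in small intestine and 6 in stomach. With slide as a fixed block within linked tissues, an alternative added after seeing the data, 91 were lower in any, and the enriched counts were 7 in bladder, 11 in bone, 5 in brain cortex, 1 in cerebellum, 9 in eyes, 14 in fat, 10 in heart, 4 in large intestine and 11 in muscle. With scan day as such a block, also added then, the enriched counts were 6 in bladder, 10 in cerebellum, 9 in eyes, 15 in fat, 4 in large intestine and 9 in stomach. On the processed signals and the value table both the signal and the scaling differed from the main setting, and the cause of the higher counts was not tested. All 34 lung calls were among the lung calls on the processed signals, on the value table and under both filters, and 30 of them under median centring, which moved the median lung difference of all probes from -0.10 to 0.03. The median information was 0.017 with no filter and 0.0745 with the stricter one, and fat had 3 enriched members with slide as a random block (correlation within slides 0.69). Slide and scan day could not be fitted as fixed blocks over all tissues at once. Leaving out 1 array at a time, where a tissue's lone array is assumed to vary like the others, gave 465 to 544 members past the F-test, 119 to 142 enriched and 20 to 27 lower in any tissue, and enriched counts of 3 to 4 in bladder, 5 to 9 in bone, 16 to 18 in brain cortex, 16 to 17 in cerebellum, 15 to 20 in eyes, 3 to 33 in fat, 6 throughout in heart, 12 to 14 in kidney, 6 to 16 in large intestine, 10 to 14 in liver, 31 to 37 in lung, 6 to 9 in muscle, 3 to 6 in skin, 9 throughout in small intestine and 14 to 15 in stomach. The extremes in fat were without fat replicate 1 and without fat replicate 2, and the highest count in large intestine was without large intestine replicate 1. With the replicate number as a block 501 members passed the F-test, 123 were enriched and no tissue count changed. Same-numbered arrays of 105 tissue pairs deviated together with correlations from -0.25 to 0.34, with 33 above 0.1, so the numbers do not pair the samples. For the named genes 3291 of 3312 values kept direction and side of the adjusted p of 0.05, whatever their size, 17 lost that side, 3 gained it and 1 turned. The losses were of the evenly expressed 1700020N15Rik and Spata31 in liver and 4930519D14Rik and 4933429K18Rik in muscle, under median centring, a slide block or without an array of that tissue, and of 1700016P03Rik in brain cortex, at 1.65 with slide as a fixed block. The gains and the turn were 4921536K21Rik in bone, at -0.13 without bone replicate 1 and 0.97 without bone replicate 2. Of the 75 enriched calls of named genes, which also need a difference of 2, 64 were kept with median centring, and of 74 that could be fitted 59 with slide and 69 with scan day as a fixed block within linked tissues. None was lost under the other signals, the filters, the random slide block or the replicate block, and 4 of 2249 values were lost on leaving out 1 array. In data simulated for the lung contrast over all probes tested, 73.1% of differences of 1 passed the test and 97% of differences of 2.5 were enriched. The simulated arrays were independent and only lung was changed, so correlation within slides and differences among the other tissues were not part of this check. Signal over background limits the dim probes, since 357 members were not tested.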

Other observations

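The arrays also hold 53 probes for 51 of the members that are not in the authors' table. Of 38 pairs with both probes past the filter, 21 had the same highest tissue. Among the second probes of enriched members, 4 of 13 were at least 2 log2 units higher in the tissue that was highest for the first probe. The second probe of Cfap206 (1700003M02Rik) read 4.82 and 5.37 in lung, a difference of 4.28 against 3.27 for the first. The second probe of Fam135b (1700010C24Rik) differed by 2.62 in cerebellum against 4.57, and those of 1700029J07Rik and Map10 (4933403G14Rik), named after their values were seen, by 2.21 and 2.29 in eyes against 2.13 and 2.06. Saxo2 (1700129I04Rik) was highest in lung by both, with 1.34 for the second probe and 3.84 for the first. By contrast the second probes of Ccdc171 (4930473A06Rik), 1700001O22Rik and Cfap20dc (4930452B06Rik) differed by 0.01 in liver, 0.04 in muscle and 0.22 in bladder, where the first differed by 2.37, 3.13 and 2.91. In eyes those of Cfap61 (4930529M08Rik) and Fam184a (4930589M24Rik) differed by 0.14 and 0.29, where the first differed by 2.89 and 2.53. The enrichment of these 5 in the tissue given thus rests on 1 of 2 probes, and which of the probes matches the transcript in that tissue was not tested.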
